A study of Homo sapiens with 24 samples.

Results

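The 10 genes examined encode DNA and RNA helicases and 1 chromatin remodeler that are known to unwind or remodel G-quadruplexes (G4s), and they were taken by symbol from both count tables. BLM, WRN, BRIP1, PIF1, RTEL1, DHX36, DHX9, DDX5, DDX11 and ATRX were all present among the 28277 genes that each table lists, and all 10 passed the filter on low counts in every comparison. PEO1 and PEO4 are high-grade serous ovarian carcinoma cell lines that come from the same patient, PEO1 from before and PEO4 from after resistance to chemotherapy arose. The 24 RNA-seq libraries fall into 8 conditions with 3 biological replicates each. The A pair held untreated PEO1 cells impaired in BRCA2, whose genotype the labels give as WT, and untreated PEO4 cells, and both were grown with added sodium pyruvate. The B pair held PEO1 BRCA+ cells, labelled BRCA2+, in which a further mutation restored BRCA2, and PEO4 cells labelled WT. The study states that PEO4 cells carry a BRCA2 reversion mutation, which brings back the reading frame. Both lines of the B pair were untreated or incubated for 2 or 6 h with 5 µM pyridostatin (PDS), a ligand that stabilizes folded G4s, and no vehicle is named for the untreated cells. Each of these is a single cell line, so differences between PEO1 and PEO4 are differences between these cultures.

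G4s are stacks of planar guanine tetrads that form in guanine-rich single strands of DNA or RNA, and they can stall polymerases and replication forks until a helicase resolves them. BLM and WRN are RecQ helicases that unwind DNA in the 3′ to 5′ direction, whereas BRIP1 (FANCJ), RTEL1, DDX11 and PIF1 move in the 5′ to 3′ direction. The first 3 of these belong to the iron-sulfur family. DHX36 and DHX9 are DEAH-box helicases, DDX5 is a DEAD-box RNA helicase that also acts in splicing and transcription, and ATRX is a SWI/SNF-type remodeler that deposits histone H3.3 at G-rich repeats with DAXX.

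Totals of 32528913 to 63882077 counts were found in the A libraries, 18699929 to 22375644 in the 6 untreated B libraries and 33260167 to 43713947 in the 12 PDS libraries. The 6 untreated B libraries therefore stood apart from all PDS libraries, and their share of counts on ribosomal RNA genes was also higher (0.217% to 0.4735% against 0.01635% to 0.0369%). Replicate 1 of PEO4 A, with 63882077 counts, stood apart from the other libraries of its group, at a chi-square per gene of 48.9 and 41.9 against 9.06 between the other two, a measure that also grows with depth. In the B pair, depth and ribosomal RNA share moved with PDS in both lines, and their part in the changes after PDS cannot be told apart from that of the treatment. Levels of 1 gene across libraries are given as CPM, a counts-per-million value after scaling by the trimmed mean of M values (TMM). Of 9 ovarian carcinoma and epithelial markers, PAX8 (lowest library 105 CPM), WT1 (82.6 CPM) and EPCAM (289 CPM) were present throughout. Others on that list varied more, and their levels are not given here. MUC16 and WFDC2 fell at 6 h of PDS in both lines, and KRT7 was lower in PEO4 in both pairs (log2 fold change -2.71 and -1.66). Among 8 leukocyte, fibroblast and endothelial markers, CD3E was at 0 and PTPRC and DCN were below 0.5 CPM in all libraries, while the summed level of the list ranged from 38.9 to 67.0 CPM in the A pair, 39.0 to 47.4 CPM in PEO1 BRCA+ and 65.2 to 89.2 CPM in PEO4 of the B pair. CD68, a lysosomal protein gene (22.8 to 78.2 CPM), and the collagen gene COL1A1 (2.27 to 32.7 CPM) made up most of that sum.

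Levels of different genes were compared in TPM, a transcripts-per-million share that takes exon length into account. DDX5 and DHX9 were the most abundant members in all 8 conditions, with mean levels of 211 to 313 TPM for DDX5 and 162 to 258 TPM for DHX9. These abundant RNA helicases lay several-fold above the third member, which was DDX11 or DHX36 (27.8 to 37.9 TPM and 19.3 to 43.6 TPM). In untreated PEO1 BRCA+ cells the order was DDX5 (211 ± 2.02 TPM), DHX9 (190 ± 3.25 TPM), DDX11 (37.9 ± 0.770 TPM), DHX36 (29.3 ± 0.867 TPM), WRN (20.2 ± 1.67 TPM), RTEL1 (19 ± 1.95 TPM), ATRX (15.1 ± 0.997 TPM), PIF1 (12.3 ± 0.747 TPM), BLM (11.6 ± 0.465 TPM) and BRIP1 (4.97 ± 0.839 TPM; SD, n = 3 each). WRN and RTEL1, and PIF1 and BLM, were neighbours that differed by less than the sum of their SDs. BRIP1, which pairs with BRCA1 in repair, was the lowest member in the 6 B conditions, at 4.97 to 6.01 TPM.

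RTEL1, an essential regulator of telomere length, was the lowest member in the A pair, at 0.593 ± 0.183 TPM in PEO1 and 0.819 ± 0.180 TPM in PEO4 (SD, n = 3). It ranged from 13.4 to 25.1 TPM in the B pair. Raw counts of RTEL1 were 42 to 119 in the A libraries and 782 to 2074 in the B libraries. The readthrough gene RTEL1-TNFRSF6B, which overlaps RTEL1, had 0 counts in all A libraries and nearly the same counts as RTEL1 in the B libraries (medians of 1007 and 989 in untreated PEO1 BRCA+). Of 146 readthrough genes that join the symbols of 2 listed genes, 92 were at 0 in every A library and 2 in every B library. Reads on overlapping genes were thus counted differently in the 2 tables, and RTEL1 levels cannot be compared between them.

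**Figure D1:**
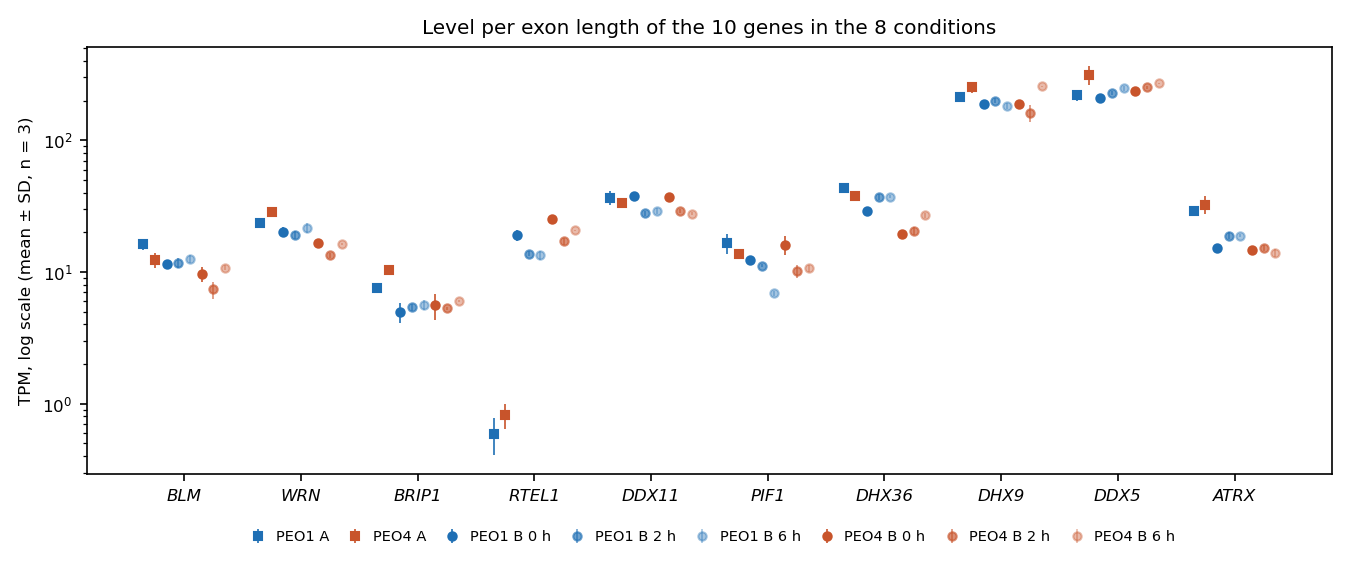
Level of the 10 members in TPM (log scale; mean ± SD of 3 libraries) in the 8 conditions; squares are the A pair, circles the B pair, blue PEO1 and orange PEO4, paler with time in PDS. DDX5 and DHX9 lay above 160 TPM throughout, while RTEL1 fell below 1 TPM only in the A pair, whose table has 0 counts for its readthrough partner.

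BLM lies on chromosome 15 (90717346 to 90816166, GRCh38.p14), BRIP1 on chromosome 17 (61679139 to 61863528), RTEL1 on chromosome 20 (63657810 to 63696253), DDX11 on chromosome 12 (31073860 to 31104799) and PIF1 on chromosome 15 (64815632 to 64827062). DHX36 is found on chromosome 3 (154272546 to 154324487), DHX9 on chromosome 1 (182839347 to 182887982), DDX5 on chromosome 17 (64498254 to 64506866) and ATRX on chromosome X (77504880 to 77786216). The members differ in size and composition. ATRX spans 281.3 kb and DDX5 8.6 kb, and the GC content of the longest GENCODE transcript was 36.9% for ATRX, 37.8% for BRIP1, 38.4% for WRN and DHX36, 40.0% for DDX5, 41.2% for BLM and 43.4% for DHX9. It was far higher for DDX11 (57.9%), PIF1 (61.9%) and RTEL1 (62.5%).

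Since PDS binds G4s, RefSeq promoter windows, from 250 bases before to 50 bases after each annotated start, were searched on both strands for a canonical G4 motif of 4 runs of GGG or more with 1 to 7 bases (N) between runs. Windows were given for 8 members, and 4 of their 12 windows, each of a different gene, held the motif, against 25.0% of all 35116 windows. The motifs are printed 5′ to 3′ on the guanine-rich strand with the guanine runs in capitals. They are a match of letters only, and no G4 was measured at them here.
RTEL1 (chromosome 20, 63657707 to 63657736, plus strand, the strand of the gene): GGGGccttctGGGGccttctGGGGcatGGG
BRIP1 (chromosome 17, 61863533 to 61863561, minus strand, the strand of the gene): GGGctattGGGcgctGGGagtcgaGGGGG
DDX5 (chromosome 17, 64506025 to 64506043, minus strand, the strand of the gene): GGGtGGGGGGatGGGaGGG
DHX9 (chromosome 1, 182839185 to 182839208, minus strand, opposite to the gene): GGGagatGGGctgagccGGGcGGG
The DDX5 motif lies before an internal start and inside the gene, whereas the other 3 lie upstream of the gene. The windows of BLM, PIF1, DHX36 and DDX11 held none in these letters.

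Untreated PEO4 and PEO1 cells were compared first. In the A pair, 4 members were higher in PEO4 (WRN, BRIP1, DHX9 and DDX5), BLM and DHX36 were lower, and PIF1, RTEL1, DDX11 and ATRX did not pass the test (edgeR's quasi-likelihood test, Benjamini-Hochberg adjusted p under 0.05). Over all 15882 genes tested, 30.1% were called higher and 31.6% lower, so the members were called about as often as genes at large. None of the members differed by more than 2-fold, whereas 25.8% of all genes did. The median log2 fold change was 0.17 over the members and -0.01 over all genes.

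Among the RecQ helicases, BLM had 25.5, 29.9 and 29.3 CPM in the PEO1 A libraries and 22.7, 22.4 and 18.1 CPM in the PEO4 A libraries. The groups did not overlap, and the log2 fold change was -0.42 ± 0.112 (SE; adjusted p = 0.0058). WRN had 43.5, 45.4 and 40.6 CPM in PEO1 A and 54.1, 49.2 and 48.3 CPM in PEO4 A, all higher in PEO4 (log2 fold change 0.23 ± 0.0818, adjusted p = 0.027). The call for WRN was lost without replicate 1 or 3 of PEO1 A or replicate 1 of PEO4 A. BRIP1 had 31.6, 33.6 and 33.8 CPM in PEO1 A and 43.8, 46.9 and 41.9 CPM in PEO4 A, a clear separation (0.42 ± 0.0821, adjusted p = 0.00068). PIF1 had 15.4, 15.7 and 20.6 CPM against 12.5, 14.7 and 14.6 CPM, and its difference of -0.31 (95% confidence interval -0.61 to -0.02) did not pass after adjustment (adjusted p = 0.0601). For DDX11, a helicase of sister chromatid cohesion, the groups overlapped at 59.4 to 74.8 CPM in PEO1 A and 56.6 to 65.3 CPM in PEO4 A (-0.16, confidence interval -0.36 to 0.04). RTEL1, near the floor in this pair, had 0.878 to 1.49 CPM in PEO1 A and 1.25 to 1.83 CPM in PEO4 A (0.46, confidence interval -0.22 to 1.13).

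The RNA helicases of the A pair moved in both directions. DHX36 had 94.7, 106 and 104 CPM in PEO1 A and 88.2, 89.5 and 82.0 CPM in PEO4 A (-0.23 ± 0.0740, adjusted p = 0.0165). The PEO4 libraries were lower without overlap, but the call was lost without replicate 2 or 3 of PEO1 A or replicate 3 of PEO4 A. DHX9 had 264, 279 and 287 CPM in PEO1 A and 348, 324 and 294 CPM in PEO4 A (0.22 ± 0.0814, adjusted p = 0.0342), and this call was lost without any 1 of the 3 PEO1 libraries or without replicate 2 of PEO4. DDX5 was the member with the largest called difference in this pair, at 412, 468 and 482 CPM in PEO1 A and 731, 580 and 576 CPM in PEO4 A (0.47 ± 0.105, adjusted p = 0.00185). Without replicate 1 of PEO4 A, the highest library, the value was 0.35 and still passed. ATRX had 152, 143 and 146 CPM against 184, 143 and 151 CPM, and the groups overlapped (0.12, confidence interval -0.08 to 0.32). The same replicate was the highest for ATRX, and without it the value was 0.00 and again did not pass.

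In the B pair, PIF1, RTEL1 and DDX5 were higher in untreated PEO4 than in untreated PEO1 BRCA+, BLM, WRN and DHX36 were lower, and BRIP1, DHX9, DDX11 and ATRX did not pass the test. Over all 17020 genes tested, 34% were called higher, 34.6% lower and 24.8% differed by more than 2-fold, and again none of the members did. DHX36, which unwinds G4s in both DNA and RNA, differed most. It had 81.8, 77.3 and 76.2 CPM in PEO1 BRCA+ and 57.1, 54.7 and 46.6 CPM in PEO4, which is 1.49-fold lower (log2 fold change -0.57 ± 0.0680, adjusted p = 5.5e-08). RTEL1 had 37.5, 40.9 and 45.4 CPM in PEO1 BRCA+ and 55.4, 54.3 and 56.9 CPM in PEO4 (0.43 ± 0.0660, adjusted p = 3.1e-06), and RTEL1-TNFRSF6B, with nearly the same counts, gave 0.46. PIF1, which also maintains mitochondrial DNA, had 13.8, 15.0 and 14.8 CPM against 16.5, 19.7 and 21.9 CPM (0.41 ± 0.0987, adjusted p = 0.00066). All 3 PEO4 libraries lay above the PEO1 BRCA+ libraries for both genes.

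WRN was lower in PEO4 of the B pair, at 42.4, 44.9 and 38.9 CPM in PEO1 BRCA+ against 36.3, 33.9 and 35.4 CPM (-0.25 ± 0.0647, adjusted p = 0.00123). BLM had 23.7, 23.7 and 22.3 CPM against 19.7, 17.6 and 21.8 CPM (-0.24 ± 0.0948, adjusted p = 0.03). The BLM groups were separated by a narrow gap, and the call was lost without replicate 1 or 2 of either line. DDX5 had 508, 494 and 495 CPM in PEO1 BRCA+ and 617, 568 and 540 CPM in PEO4 (0.20 ± 0.0516, adjusted p = 0.00113). ATRX differed by -0.01 (confidence interval -0.14 to 0.13), DDX11 by 0.00 (-0.10 to 0.11) and DHX9 by 0.03 (-0.13 to 0.18), narrow intervals around 0. BRIP1 varied most between replicates, at 25.0, 28.5 and 20.7 CPM against 26.6, 23.5 and 34.7 CPM (0.19, confidence interval -0.04 to 0.43).

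The difference between the pairs was tested directly in the 12 untreated libraries. WRN was higher in PEO4 in the A pair and lower in the B pair, and the difference of 0.48 ± 0.111 between these 2 log2 fold changes passed the test (adjusted p = 0.0026). DHX36 was lower in PEO4 in both pairs, by less in the A pair (difference 0.34 ± 0.110, adjusted p = 0.0226). The call for DHX36 was lost without replicate 1 of PEO1 A, replicate 2 of PEO4 A or replicate 1 of untreated PEO1 BRCA+. PIF1 went in opposite directions, with a difference of -0.73 ± 0.189 (adjusted p = 0.00614). These 3 calls compare with 36.3% of 16888 genes. DDX5 (0.27 ± 0.131, adjusted p = 0.128) and the other 6 members did not pass. The pairs differ in the BRCA2 status of PEO1, in medium and in the counting of overlapping genes, which cannot be told apart, and the labels name a library kit for the A pair alone.

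**Figure D2:**
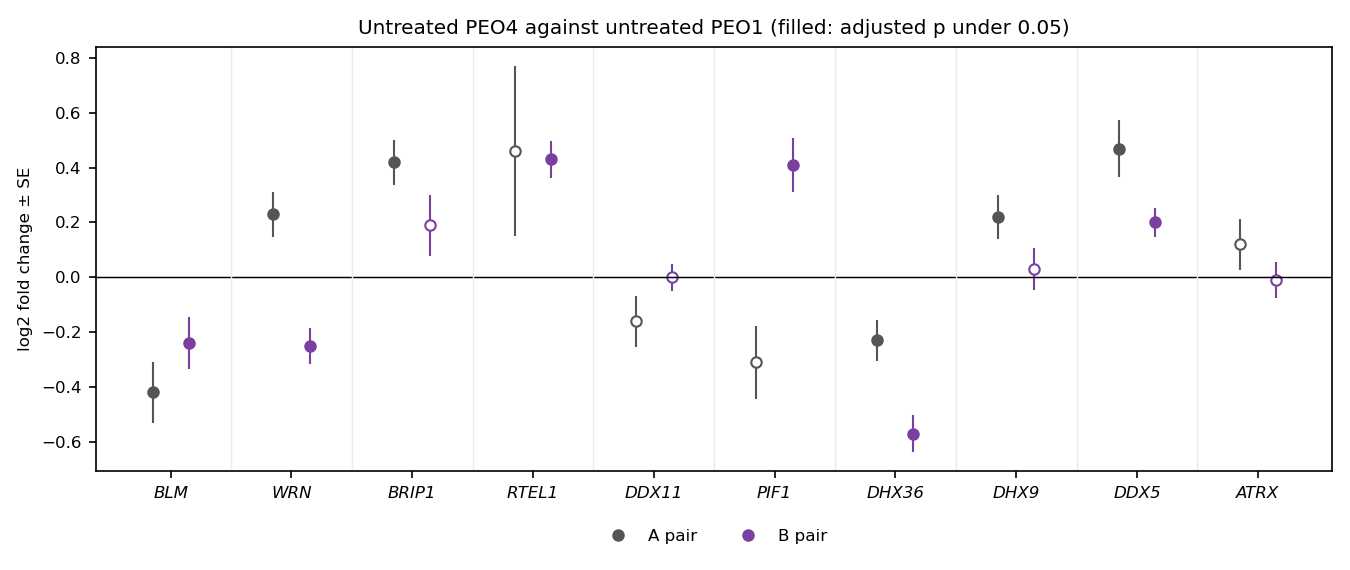
Log2 fold change (± SE) of each member in untreated PEO4 against untreated PEO1 in the A pair (grey) and the B pair (purple), 3 libraries a group; filled points had an adjusted p under 0.05. WRN lay at 0.23 in the A pair and -0.25 in the B pair, while BLM and DHX36 lay below 0 and DDX5 above 0 in both. RTEL1, BRIP1 and DHX9 also lay above 0 in both pairs but were not called in both.

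PDS treatment was then compared with untreated cells of the same line. In both lines and at both times DHX36 and DDX5 rose and RTEL1 and DDX11 fell. In PEO1 BRCA+ after 2 h, DHX36, DHX9, DDX5 and ATRX rose and RTEL1 and DDX11 fell, against 26.4% of all genes called higher and 26.2% called lower. After 6 h in this line 6 members rose (BLM, WRN, BRIP1, DHX36, DDX5 and ATRX), PIF1, RTEL1 and DDX11 fell, and DHX9 alone did not pass, against 27% higher and 26% lower over all genes. In PEO4 after 2 h, DHX36, DDX5 and ATRX rose and PIF1, RTEL1 and DDX11 fell, against 33.3% and 32% of all genes. After 6 h in PEO4, BLM, DHX36, DHX9 and DDX5 rose and PIF1, RTEL1 and DDX11 fell, against 34.6% and 35.2%. None of the members passed 2-fold in these 4 comparisons, in which 7.57%, 8.13%, 17.4% and 22.6% of all genes did. Over the members, the median log2 fold change was 0.18, 0.26, -0.09 and 0.18 in the same order, beside medians of 0.00 to -0.03 over all genes.

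The comparisons at 2 and 6 h share the untreated libraries of each line, so they are not independent of each other. When libraries were scaled by their totals, the median of all genes moved to between -0.13 and -0.19, and the calls for DHX36, RTEL1 and DDX11 remained at both times in both lines. A fit with an offset for GC content is given below with the GC values of the members. It ended some of these calls in PEO4 (DHX36 at 2 h and DDX11 at both times) and turned that of RTEL1 at 6 h (0.16). The genes called higher and lower were 4489 and 4458 at 2 h and 4593 and 4431 at 6 h in PEO1 BRCA+ and 5675 and 5447 at 2 h and 5883 and 5998 at 6 h in PEO4. Library totals gave 2838 and 6342, 2977 and 6290, 4431 and 6762, and 4519 and 7400. With that scaling the rises of DHX9 and DDX5 at 2 h and of BLM, WRN and BRIP1 at 6 h in PEO1 BRCA+, and those of ATRX at 2 h and BLM at 6 h in PEO4, no longer passed.

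Of the RNA helicases, DHX36 rose from 81.8, 77.3 and 76.2 CPM in untreated PEO1 BRCA+ to 107, 108 and 113 CPM at 2 h and 110, 112 and 112 CPM at 6 h. All treated libraries lay above the untreated ones, by 0.48 ± 0.0656 at 2 h (adjusted p = 1.5e-06) and 0.50 ± 0.0656 at 6 h (adjusted p = 6e-07) on the log2 scale. In PEO4, DHX36 had 57.1, 54.7 and 46.6 CPM untreated, 63.9, 58.9 and 68.7 CPM at 2 h (0.27 ± 0.0673, adjusted p = 0.00098) and 84.4, 77.5 and 79.7 CPM at 6 h (0.61 ± 0.0672, adjusted p = 1.5e-08). The PEO4 levels increased again between 2 and 6 h (0.34 ± 0.0653, adjusted p = 9.8e-05), whereas those of PEO1 BRCA+ did not pass (0.03, confidence interval -0.11 to 0.16). At 6 h the PEO4 libraries lay in or just above the range of untreated PEO1 BRCA+.

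DDX5 had 508, 494 and 495 CPM in untreated PEO1 BRCA+ and rose to 584, 598 and 594 CPM at 2 h (0.25 ± 0.0515, adjusted p = 0.00029) and 671, 641 and 643 CPM at 6 h (0.39 ± 0.0516, adjusted p = 9.3e-07). In PEO4 it went from 617, 568 and 540 CPM to 685, 699 and 676 CPM at 2 h (0.26 ± 0.0515, adjusted p = 0.00012) and 714, 708 and 720 CPM at 6 h (0.31 ± 0.0515, adjusted p = 7.5e-06). No treated library overlapped the untreated ones in either line. MIR3064 and MIR5047, microRNA genes within DDX5, did not follow it after PDS. In PEO4 they fell by 0.72 and 0.62 at 2 h and by 0.46 and 0.56 at 6 h, all called, and CEP95, which overlaps the DDX5 locus, was not called at either time. In PEO1 BRCA+ only MIR5047 at 2 h was called among these 3 genes (-0.41, adjusted p = 0.0117). Between untreated lines MIR3064 and MIR5047 were higher in PEO4 of the A pair (1.32 and 1.01), as DDX5 was, and MIR3064 also in the B pair (0.70). Raw counts of the other 2 genes were higher there too. MIR5047 had 139 to 167 in untreated PEO1 BRCA+ and 208 to 254 in untreated PEO4, and CEP95 had 515 to 624 and 642 to 817. The libraries were selected for polyadenylated RNA, so these counts do not measure mature microRNAs.

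DHX9, which resolves RNA-containing structures such as R-loops, had 295, 276 and 284 CPM in untreated PEO1 BRCA+ and 327, 324 and 336 CPM at 2 h (0.21 ± 0.0755, adjusted p = 0.0236). That call was lost without replicate 3 of the 2 h libraries or replicate 2 or 3 of the untreated ones. At 6 h it had 305, 298 and 311 CPM (0.10, confidence interval -0.06 to 0.25). PEO4 gave another course, with 308, 297 and 264 CPM untreated, 285, 234 and 320 CPM at 2 h and 425, 432 and 436 CPM at 6 h. The 2 h libraries of PEO4 spanned the untreated range (-0.05, confidence interval -0.21 to 0.10), and the 6 h libraries lay above all others, 1.49-fold above untreated (0.57 ± 0.0756, adjusted p = 3.2e-07). The response at 6 h was larger in PEO4 than in PEO1 BRCA+ by 0.48 ± 0.107 (adjusted p = 0.00073).

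ATRX rose in PEO1 BRCA+ from 94.9, 85.2 and 82.2 CPM to 119, 115 and 125 CPM at 2 h (0.45 ± 0.0641, adjusted p = 2.1e-06) and 120, 122 and 122 CPM at 6 h (0.47 ± 0.0641, adjusted p = 1.1e-06). In PEO4 the levels were 88.5, 82.4 and 89.7 CPM untreated, 95.4, 106 and 106 CPM at 2 h (0.24 ± 0.0642, adjusted p = 0.00244) and 83.4, 89.0 and 97.0 CPM at 6 h (0.05, confidence interval -0.09 to 0.18). The 6 h libraries of PEO4 overlapped the untreated ones, and they were lower than at 2 h (-0.19 ± 0.0633, adjusted p = 0.013). The response at 6 h was smaller in PEO4, by a log2 difference of -0.42 ± 0.0908 (adjusted p = 0.00043). The difference at 2 h did not pass (-0.22, confidence interval -0.41 to -0.03, adjusted p = 0.0598).

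**Figure D3:**
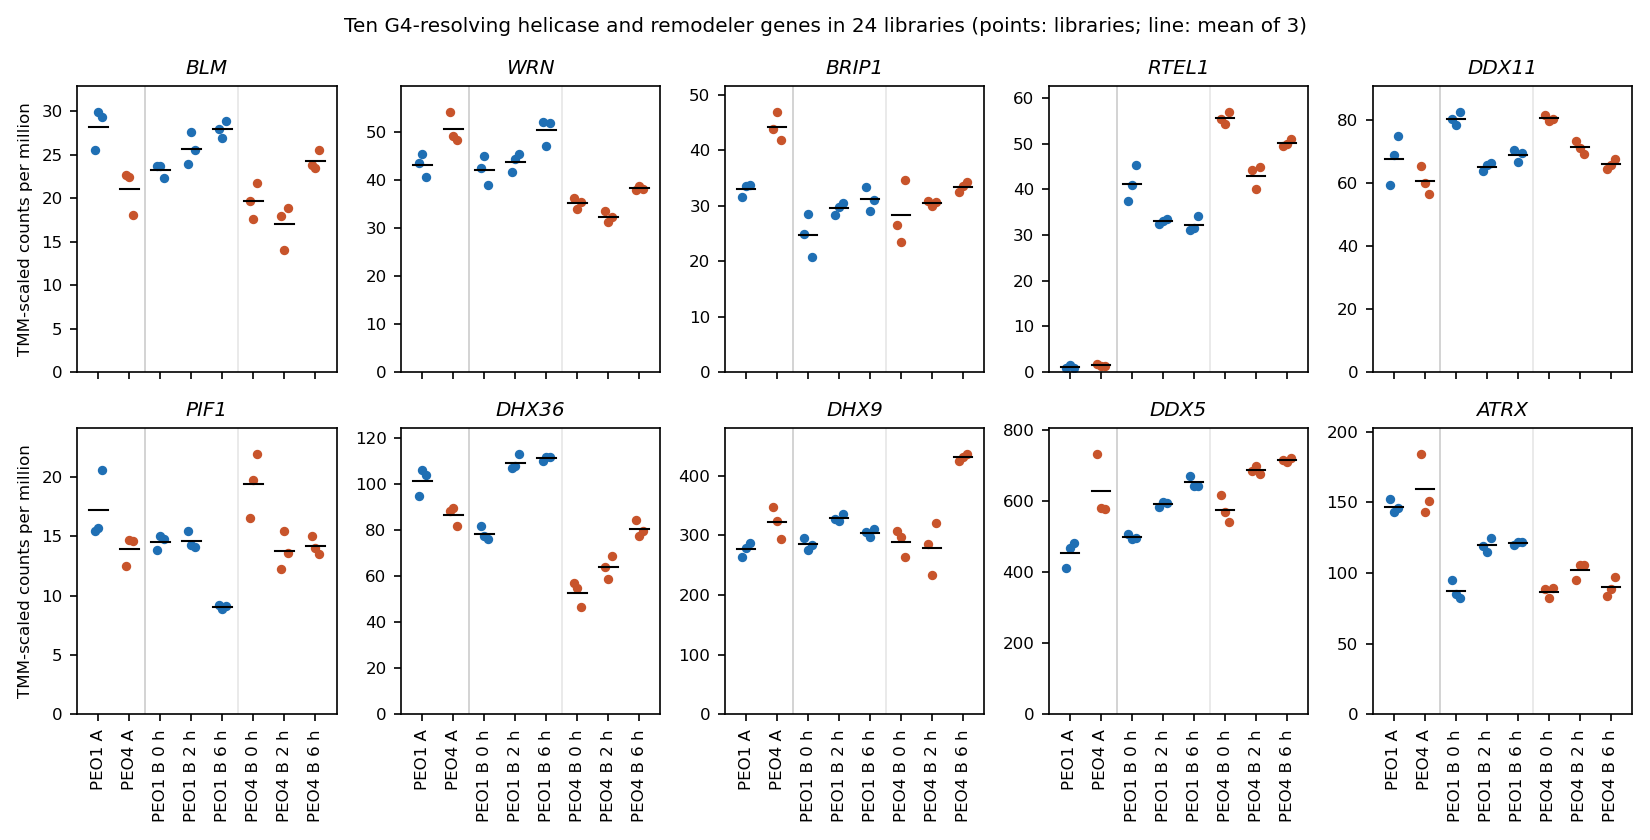
Level in CPM of each member in the 24 libraries (points; the line is the mean of 3), from 0 on every axis, blue for PEO1 and orange for PEO4. DHX36 rose after PDS in both lines of the B pair, PIF1 was lowest in PEO1 BRCA+ at 6 h (8.85 to 9.19 CPM), and DHX9 was highest in PEO4 at 6 h (425 to 436 CPM).

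Among the DNA helicases, PIF1 showed the largest decrease of the 10 members after PDS. In PEO1 BRCA+ it had 13.8, 15.0 and 14.8 CPM untreated, 15.4, 14.3 and 14.1 CPM at 2 h and 9.19, 8.85 and 9.13 CPM at 6 h. The 2 h libraries overlapped the untreated ones (0.01, confidence interval -0.19 to 0.21), and the 6 h libraries were 1.6-fold lower without overlap (-0.68 ± 0.101, adjusted p = 4.1e-06). In PEO4 the decrease was already present at 2 h, from 16.5, 19.7 and 21.9 CPM to 12.2, 15.4 and 13.6 CPM (-0.49 ± 0.0956, adjusted p = 7.5e-05), and levels at 6 h were 15.0, 14 and 13.5 CPM (-0.45 ± 0.0956, adjusted p = 0.0002). The lines differed in their response at 2 h by -0.50 ± 0.136 (adjusted p = 0.00543) and did not pass at 6 h (0.23, confidence interval -0.05 to 0.52). PIF1 was also lower at 6 h than at 2 h in PEO1 BRCA+ (-0.69 ± 0.0979, adjusted p = 7.4e-05).

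RTEL1 fell in PEO1 BRCA+ from 37.5, 40.9 and 45.4 CPM to 32.4, 33.1 and 33.5 CPM at 2 h (-0.32 ± 0.0661, adjusted p = 0.00022) and 31.0, 31.5 and 34.1 CPM at 6 h (-0.36 ± 0.0662, adjusted p = 6.9e-05). In PEO4 it fell from 55.4, 54.3 and 56.9 CPM to 44.2, 40.0 and 44.8 CPM at 2 h (-0.37 ± 0.0645, adjusted p = 2.1e-05) and stood at 49.5, 49.9 and 51.0 CPM at 6 h (-0.15 ± 0.0642, adjusted p = 0.0423). The 6 h call in PEO4 was lost without any 1 of the 6 libraries compared, and levels at 6 h were higher than at 2 h (0.22 ± 0.0635, adjusted p = 0.0044). RTEL1-TNFRSF6B fell by 0.34 and 0.37 in PEO1 BRCA+ and by 0.41 and 0.19 in PEO4, and reads of the 2 genes cannot be told apart in these counts. TNFRSF6B itself, a decoy receptor gene, had at most 4.19 CPM.

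DDX11 had 80.4, 78.3 and 82.5 CPM in untreated PEO1 BRCA+, 63.7, 65.6 and 66.2 CPM at 2 h (-0.30 ± 0.0492, adjusted p = 1.4e-05) and 70.4, 66.6 and 69.4 CPM at 6 h (-0.22 ± 0.0491, adjusted p = 0.00045). In PEO4 it had 81.6, 79.8 and 80.3 CPM untreated, 73.4, 71.1 and 69.3 CPM at 2 h (-0.18 ± 0.0491, adjusted p = 0.00272) and 64.3, 65.8 and 67.7 CPM at 6 h (-0.29 ± 0.0492, adjusted p = 1.2e-05). Treated and untreated libraries did not overlap in either line. Its near-identical pseudogene DDX12P fell by 1.25 and 0.78 in PEO1 BRCA+ and by 0.93 and 0.64 in PEO4 at 2 and 6 h, all called. Reads may be divided between the 2 copies by the counting, so the DDX11 values carry that uncertainty. DDX11-AS1, at 0.515 to 2.06 CPM in the B pair, fell in PEO1 BRCA+ by 0.70 (adjusted p = 0.0353) and 1.01 (adjusted p = 0.00426) and did not pass in PEO4.

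BLM, mutated in Bloom syndrome, had 23.7, 23.7 and 22.3 CPM in untreated PEO1 BRCA+, 23.9, 27.6 and 25.5 CPM at 2 h (0.14, confidence interval -0.04 to 0.33) and 27.9, 26.9 and 28.9 CPM at 6 h (0.26 ± 0.0901, adjusted p = 0.0168). In PEO4 it had 19.7, 17.6 and 21.8 CPM untreated, 18, 14.1 and 18.9 CPM at 2 h (-0.21, confidence interval -0.40 to -0.02, adjusted p = 0.0508) and 23.8, 23.5 and 25.5 CPM at 6 h (0.30 ± 0.0921, adjusted p = 0.006). The 6 h call in PEO1 BRCA+ was lost without replicate 3 of the untreated libraries. In PEO4, BLM was higher at 6 h than at 2 h without overlap (0.51 ± 0.0894, adjusted p = 2.8e-05). The response at 2 h differed between the lines by -0.36 ± 0.130 (adjusted p = 0.0342), a call that was lost without replicate 2 or 3 of PEO1 BRCA+ at 2 h, replicate 2 of PEO4 at 2 h, replicate 3 of untreated PEO1 BRCA+ or replicate 1 or 3 of untreated PEO4.

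WRN, a RecQ helicase with an added exonuclease and mutated in Werner syndrome, had 42.4, 44.9 and 38.9 CPM in untreated PEO1 BRCA+, 41.6, 44.4 and 45.4 CPM at 2 h (0.06, confidence interval -0.07 to 0.19) and 52.1, 47.0 and 51.9 CPM at 6 h (0.26 ± 0.0624, adjusted p = 0.00112). In PEO4 its levels were 36.3, 33.9 and 35.4 CPM untreated, 33.5, 31.2 and 32.2 CPM at 2 h (-0.13, confidence interval -0.26 to 0.01) and 37.9, 38.7 and 38.0 CPM at 6 h (0.12, confidence interval -0.02 to 0.25). WRN was higher at 6 h than at 2 h in PEO4 (0.24 ± 0.0622, adjusted p = 0.00172) and in PEO1 BRCA+ (0.20 ± 0.0612, adjusted p = 0.0469), where the call was lost without any 1 of 5 of the 6 libraries. BRIP1 had 25.0, 28.5 and 20.7 CPM in untreated PEO1 BRCA+, 28.4 to 30.5 CPM at 2 h and 33.3, 29.1 and 31.1 CPM at 6 h, and passed at 6 h alone (0.33 ± 0.109, adjusted p = 0.0146). Its untreated libraries were the most spread of the group, and the call was lost without replicate 1 at 6 h or replicate 3 untreated. In PEO4, BRIP1 had 26.6, 23.5 and 34.7 CPM untreated, 30.9, 30 and 30.6 CPM at 2 h (0.11) and 32.5 to 34.3 CPM at 6 h (0.24, adjusted p = 0.0512), and neither time passed.

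**Figure D4:**
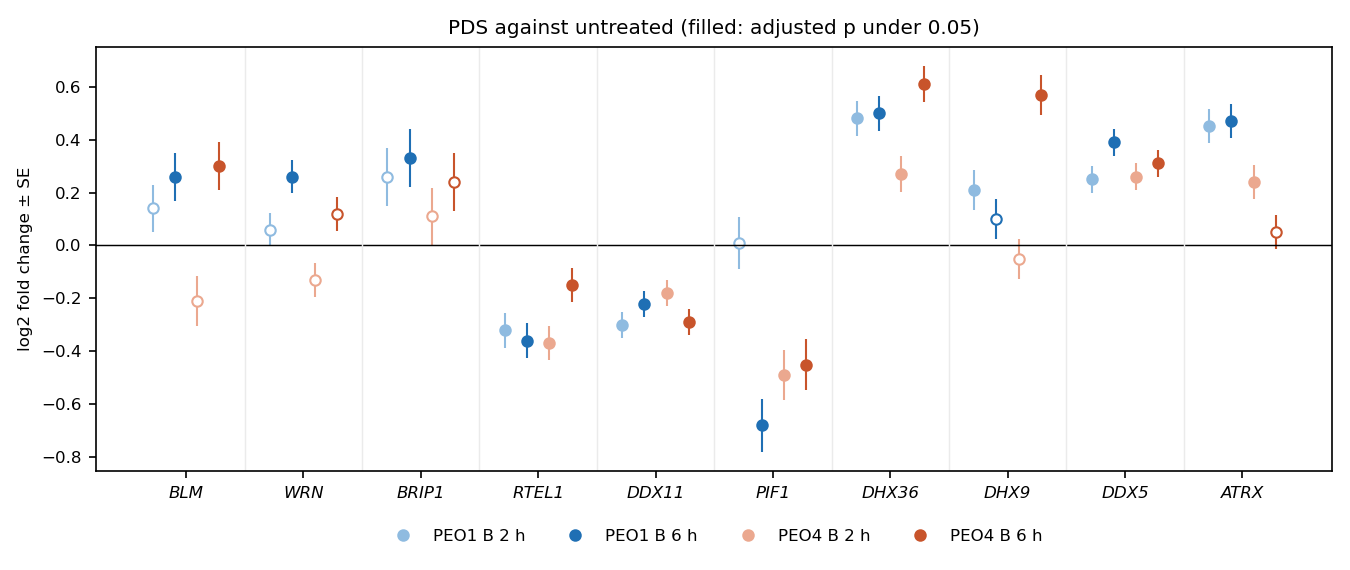
Log2 fold change (± SE, 3 libraries a group) of each member after 2 or 6 h of PDS against untreated cells in PEO1 BRCA+ (blue) and PEO4 (orange); filled points had an adjusted p under 0.05. DHX36 and DDX5 were above 0 and RTEL1 and DDX11 below 0 in all 4 comparisons, while DHX9 reached 0.57 in PEO4 at 6 h and 0.10 in PEO1 BRCA+.

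Between 2 and 6 h, WRN was the member called higher and PIF1 the member called lower in PEO1 BRCA+, where 3.96% of all genes were called higher, 2.98% lower and 0.17% past 2-fold. In PEO4, BLM, WRN, RTEL1, DHX36 and DHX9 were called higher and ATRX lower, against 28.9% higher, 31.3% lower and 12% past 2-fold. The call for ATRX was lost without replicate 2 or 3 of the 2 h libraries or replicate 1 of the 6 h libraries. In the test of the difference in response between the lines, BLM and PIF1 passed at 2 h, against 37.3% of all genes, and DHX9 and ATRX at 6 h, against 47.4%.

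The members that fell after PDS were the 3 with GC-rich transcripts (57.9% to 62.5%), and all members that rose had transcripts of 36.9% to 43.4% GC. The same order was seen over the 94.2% of genes tested that had a GC value. In PEO1 BRCA+ the median log2 fold change went from 0.09 in the quintile of genes with the lowest GC content to -0.17 in the highest quintile at 2 h and from 0.11 to -0.16 at 6 h. In PEO4 it went from 0.16 to -0.22 at 2 h and from 0.20 to -0.37 at 6 h. A fit with an offset for GC content in each library, chosen after these values were seen, gave DHX36 0.39 and 0.40 in PEO1 BRCA+ and 0.11 and 0.42 in PEO4, and the rise at 2 h in PEO4 no longer passed. With the offset PIF1 fell by 0.56 at 6 h in PEO1 BRCA+ and by 0.30 at 2 h in PEO4, both called, and its value at 6 h in PEO4 was -0.16 (adjusted p = 0.12). DDX11 passed in PEO1 BRCA+ (-0.22 and -0.15), and both of its calls in PEO4 were lost (-0.07 and -0.10). RTEL1 fell at 2 h in both lines (-0.17 and -0.15) and at 6 h in PEO1 BRCA+ (-0.22), and it was higher at 6 h in PEO4 (0.16, adjusted p = 0.037). ATRX kept its rise in PEO1 BRCA+ (0.35 and 0.34), whereas in PEO4 its rise at 2 h was lost (0.04, adjusted p = 0.59) and it was called lower at 6 h (-0.17, adjusted p = 0.022). The rise of BLM at 6 h no longer passed in PEO1 BRCA+ (0.20, adjusted p = 0.053) or PEO4 (0.15, adjusted p = 0.12), and that of BRIP1 at 6 h in PEO1 BRCA+ did not pass either (0.22, adjusted p = 0.096). WRN still rose at 6 h in PEO1 BRCA+ (0.15, adjusted p = 0.025). At 2 h in PEO4, BLM (-0.33) and WRN (-0.29) were called lower with the offset. DDX5 passed at both times in both lines (0.12 to 0.30), and DHX9 at 6 h in PEO4 (0.46) but not at 2 h in PEO1 BRCA+. The GC trend after PDS moved with PDS and also with depth and ribosomal RNA share, and their parts in it cannot be told apart. Untreated lines of the B pair also showed a trend, from -0.06 in the lowest quintile to 0.18 in the highest. With the offset, RTEL1 and PIF1 (0.26 each) remained higher in untreated PEO4 than in PEO1 BRCA+, by less than without it. BLM no longer passed there (-0.17, adjusted p = 0.097) and BRIP1 did (0.26, adjusted p = 0.045), while the other calls remained. The offset would also remove a response to PDS that is tied to GC content, so a call lost with it is not shown to be technical.

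**Figure D5:**
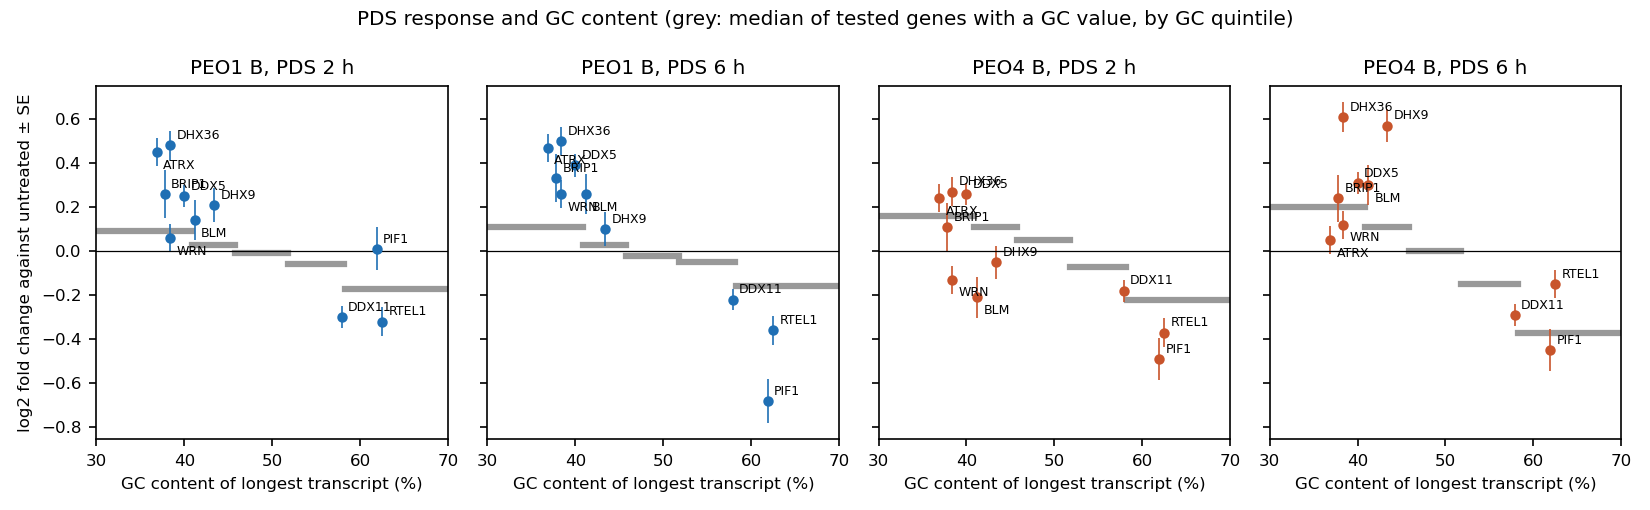
Log2 fold change after PDS (± SE) of each member against the GC content of its longest transcript, with the median of the tested genes with a GC value in each quintile of GC content in grey, for both lines and both times. DDX11, PIF1 and RTEL1, at 57.9% to 62.5% GC, lay at or below 0.01, and the grey medians fell with GC content in all 4 panels, from 0.20 to -0.37 in PEO4 at 6 h.

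Other genes that act with or beside the members were counted in lists. Over all genes tested, 26.4%, 27%, 33.3% and 34.6% were called higher and 26.2%, 26%, 32% and 35.2% lower at 2 and 6 h in PEO1 BRCA+ and at 2 and 6 h in PEO4, and in untreated PEO4 against PEO1 30.1% were higher and 31.6% lower in the A pair and 34% and 34.6% in the B pair. Of 29 other helicases and remodelers, 16 were called higher and 5 lower at 6 h of PDS in PEO4, with a median log2 fold change of 0.22. At 2 h in PEO4 the counts were 9 and 10, and in PEO1 BRCA+ they were 8 and 8 at 2 h and 8 and 7 at 6 h. TWNK, the mitochondrial replicative helicase, rose by 1.16 and HELLS, a chromatin remodeler that acts in DNA methylation, by 1 at 6 h in PEO4. TWNK also rose at 2 h in PEO4 (0.65), where RECQL4, a further RecQ helicase, fell (-0.68). In PEO1 BRCA+ the most changed were DDX1 (0.60) and HELB (-0.52) at 2 h and ZRANB3 (-0.77) and TWNK (0.62) at 6 h. Between untreated lines, 4 of 28 tested were higher and 8 lower in PEO4 of the A pair and 3 and 18 of 29 in the B pair. RECQL4 was higher in PEO4 in both pairs (1.21 and 1.78), and MCM8, which acts in recombination, was lower (-1.28 and -1.18).

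Of 17 partners of the members, 7 rose and 3 fell at each time in PEO1 BRCA+, and 6 rose and 6 fell at 2 h and 9 rose and 2 fell at 6 h in PEO4. The H3.3 gene H3-3A, whose protein ATRX deposits, fell by 0.92, 0.95, 1.11 and 1.47 in the 4 comparisons with PDS, and H3-3B, which encodes the same protein, rose by 0.56, 0.56, 0.18 and 0.25. In the A pair, H3-3A had at most 0.0418 CPM and was not tested, against 42.2 CPM or more in all B libraries. Whether its reads were counted alike for the A and B pairs was not tested, so its values carry that uncertainty. TIPIN, a fork protection factor, rose in PEO4 (0.75 and 1.01) and had 0.20 and 0.22 in PEO1 BRCA+, which did not pass. PCNA, the sliding clamp, rose in all 4 comparisons (0.54, 0.59, 0.57 and 0.55). Between untreated lines, 1 partner of 16 tested was higher and 5 lower in the A pair, and 5 of 17 were higher and 8 lower in the B pair. PCNA was lower in PEO4 in both pairs (-1.37 and -1.17), H3-3B was higher in both (1.15 and 0.86), and TIPIN was lower in the B pair (-0.93) and did not pass in the A pair (-0.28).

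Among 18 tested G4-binding proteins, 12, 13, 10 and 14 rose and 4, 2, 3 and 2 fell in the same 4 comparisons, with medians of 0.37, 0.38, 0.21 and 0.39. NPM1, a nucleolar chaperone, rose by 0.84, 0.81, 0.91 and 1.09, and SUB1, a single-strand DNA-binding coactivator, by 0.78, 0.90, 1.07 and 1.06. Between untreated lines 3 were higher and 6 lower in the A pair (HNRNPA1 -0.60, GRSF1 -0.49) and 4 and 8 in the B pair (NPM1 -0.65, GRSF1 -0.49). H3-3A, NPM1, SUB1 and HNRNPA1 have processed pseudogenes that could take some of their reads.

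Of 20 proliferation markers, 13 rose and 0 fell at 2 h and 11 and 2 at 6 h in PEO1 BRCA+, and 8 rose and 4 fell at 2 h and 13 and 3 at 6 h in PEO4. Their summed level went from 3300 to 3390 CPM in untreated PEO1 BRCA+ to 4050 to 4170 CPM at 2 h and 3900 to 3950 CPM at 6 h. In PEO4 it went from 2950 to 3280 CPM to 2930 to 3530 CPM at 2 h, which overlapped, and 3860 to 3900 CPM at 6 h. AURKB, a mitotic kinase, rose by 0.79 and 0.66 in PEO1 BRCA+ and 0.72 at 2 h in PEO4, with CDC6 (0.64) and CCNE2 (0.92) in PEO1 BRCA+ and BUB1 (0.41 and 0.74) and RRM2 (0.83) in PEO4. Between untreated lines 3 of 20 were higher and 12 lower in PEO4 of the A pair (MCM3 0.99, CDC6 -0.82), and 5 and 7 in the B pair (MCM3 0.90, CDC6 -0.68).

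Of 9 ovarian carcinoma and epithelial markers, 4, 4, 3 and 2 rose and 3, 2, 4 and 5 fell in the 4 comparisons with PDS. MUC16, the CA-125 mucin, fell by 2.29 and 2.59 in PEO1 BRCA+ and changed by -3.4 at 6 h in PEO4, and WFDC2 fell by 1.30, 1.38 and 0.87 in the same comparisons, while KRT8 (-0.61) and WT1 (-0.59) fell at 2 h in PEO4. Between untreated lines 4 were higher and 4 lower in the A pair (PAX8 1.56, KRT7 -2.71), and 4 and 2 in the B pair (WFDC2 1.85, KRT7 -1.66). Of the 8 leukocyte, fibroblast and endothelial markers 5 were tested, of which 0, 0, 1 and 1 rose and 1, 2, 3 and 4 fell after PDS, and 2 were higher and 1 lower in PEO4 of the A pair and 4 and 0 in the B pair. Some of these changes were large. COL1A2 was higher in PEO4 of the A pair (3.93) and the B pair (6.68), COL1A1 was lower in PEO4 of the A pair (-1.83), and VWF fell at 6 h in PEO4 (-4.17). The part of these lists in the levels of the members was not tested.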

How the data were processed

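RNA was purified on columns, treated with DNase, selected for polyadenylated transcripts and sequenced from both ends. The submitters' processing notes name FastQC, fastp, STAR, featureCounts and hg38, without versions, and the annotation and strand setting are not given in the sources used here. The authors deposited raw counts of reads per gene as whole numbers in 1 table of 6 libraries and 1 of 18. Lines without readable counts (2 and 1) were left out. The labels number 3 replicates a group, which the study's methods call biological. Columns were matched to samples by line, time and replicate number.

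The tests were run with edgeR 4.0.16 under R 4.3.3. The function filterByExpr (minimum count 10, minimum total 15) left 15882, 17020 and 16888 genes for the A pair, the B pair and the untreated libraries of both. After TMM scaling, each table was fitted as a whole by the robust quasi-likelihood method, with 1 coefficient for every condition (common dispersion 0.0129, 0.00502 and 0.0114; 4, 12 and 8 residual degrees of freedom). Calls required an adjusted p (Benjamini-Hochberg, over all genes tested) under 0.05. CPM are TMM-scaled. TPM used the union of GENCODE release 44 exons, which matched 25763 symbols. Coordinates and promoters are RefSeq's for GRCh38.p14. No promoter window was given for WRN or ATRX.

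Alternatives were DESeq2's size factors, library totals or upper-quartile scaling, no filter on low counts, DESeq2 1.42.0, only the groups compared, the replicate number as a block, and leaving out each library. An offset for GC content (lowess, span 0.3, on 15158, 16032 and 15948 genes) was added after the data were seen. Simulated counts with known changes were used to test the code. The members and lists were chosen with earlier results of these data known. All members are named in every comparison, and of the other lists the 2 called genes that changed most in each comparison of untreated lines or of PDS with untreated cells. Genes that overlap or nearly copy a member are instead named beside that member, in some of the comparisons only. For TIPIN, PCNA and H3-3B, values in the other comparisons were added after they were seen. The leukocyte, fibroblast and endothelial markers are given mainly by counts and levels, since most have very low counts. Replicate pairs differed by more than sampling noise (chi-square per gene at least 2.08), so none was a duplicate.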

Additional observations from a re-analysis of the deposited data

Results flagged for a closer look

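In 7 cases the effect of the same contrast differed between lines or pairs by a test of the difference itself (edgeR's quasi-likelihood test, adjusted over all genes). The response to 2 h of PDS differed between PEO4 and PEO1 BRCA+ for BLM, by -0.36 (adjusted p = 0.0342), and for PIF1, by -0.50 (adjusted p = 0.00543). At 6 h it differed for DHX9, by 0.48 (adjusted p = 0.00073), and for ATRX, by -0.42 (adjusted p = 0.00043). The difference between the untreated lines was not the same in the A pair as in the B pair for WRN (0.48, adjusted p = 0.0026), PIF1 (-0.73, adjusted p = 0.00614) and DHX36 (0.34, adjusted p = 0.0226). Between 36.3% and 47.4% of all genes passed these tests. All 7 values passed with the GC offset as well (-0.42, -0.44, 0.40, -0.51, 0.44, -0.59 and 0.30 in the same order). Over all alternatives run, the call for BLM held in 13 of 20 and that for DHX36 in 16 of 19, while the others held in all. Single libraries were not tested as outliers in groups of 3, although replicate 1 of PEO4 A differed most from its group (chi-square per gene 48.9 and 41.9 against 9.06).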

How the results depend on the processing

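Of 55 calls of members, 35 held under all alternatives run, and of the 1700 log2 fold changes of members under these alternatives 1513 kept their direction and their side of the threshold. With 3 libraries a group, differences near 1.2-fold passed or missed the threshold with the setting. Members called higher between 6 and 2 h in PEO1 BRCA+ (1) became 0 with DESeq2's size factors, library totals, upper-quartile scaling or no filter on low counts, and 2 with DESeq2 or only the groups compared. Members called lower at 2 h in PEO4 (3) became 5 with DESeq2's size factors or upper quartile and 6 with library totals. Those with a lower 2 h response in PEO4 than in PEO1 BRCA+ (2) became 4 with DESeq2's size factors or DESeq2, 1 with only the 4 groups compared and 6 with the GC offset. Library totals left 2 of 4 members higher at 2 h and 3 of 6 at 6 h in PEO1 BRCA+, and library totals, upper quartile and DESeq2 gave 2 lower between 6 and 2 h in PEO4 (1 in the report). Upper quartile left 1 of 2 lower in the A pair. The GC offset gave 1 higher at 2 h (from 3) and 1 lower at 6 h in PEO4 (from 3), and 3 higher and 2 lower in the difference of 6 h responses (from 1 and 1). Without single libraries the counts ranged from 2 to 4 higher and 1 to 4 lower in the A pair, 0 to 1 higher between 6 and 2 h in PEO1 BRCA+, 0 to 1 lower between 6 and 2 h in PEO4, 1 to 5 lower and 1 to 2 higher for the 2 h and 6 h differences of response, and 1 to 3 higher for the difference between pairs.

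Of the 55 calls, 1 changed direction, that of RTEL1 at 6 h in PEO4 with the GC offset (0.16), and ATRX, not called there, became -0.17. Library totals gave, at 2 h in PEO1 BRCA+, 0.00 for BLM, -0.09 for WRN and -0.14 for PIF1, at 6 h -0.05 for DHX9, and in PEO4 -0.02 for BRIP1 at 2 h and -0.04 for WRN and -0.11 for ATRX at 6 h. Upper quartile gave 0.00 for ATRX between untreated lines of the B pair, -0.02 for WRN and -0.07 for PIF1 at 2 h in PEO1 BRCA+, -0.07 for ATRX at 6 h in PEO4 and -0.01 for PIF1 between 6 and 2 h in PEO4. No filter gave -0.01 for DDX11 between untreated lines of the B pair. DESeq2's size factors, DESeq2 and only the 4 groups gave -0.01 for DDX5 in the difference of 2 h responses. The GC offset further gave -0.08 for DDX11 and 0.05 for ATRX between untreated lines of the B pair, -0.03 for WRN at 2 h and -0.01 for ATRX between 6 and 2 h in PEO1 BRCA+, -0.07 for BRIP1 at 2 h and for WRN at 6 h in PEO4, 0.02 for RTEL1 and -0.06 for DDX5 in the difference of 2 h responses, and -0.05 for BLM and 0.05 for DDX11 in that of 6 h responses. The causes of these changes were not tested.

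Leaving out single libraries gave -0.02 to 0.04 for PIF1 at 2 h and -0.01 to 0.05 for ATRX between 6 and 2 h in PEO1 BRCA+. In PEO4 it gave -0.16 to 0.07 for DHX9 and 0.00 to 0.28 for BRIP1 at 2 h, 0.00 to 0.11 for ATRX at 6 h and -0.02 to 0.14 for PIF1 between 6 and 2 h. Between untreated lines of the B pair it gave -0.05 to 0.05 for ATRX, -0.01 to 0.02 for DDX11 and -0.02 to 0.09 for DHX9. Differences of 2 h responses ranged from -0.03 to 0.06 for DDX5, -0.13 to 0.01 for RTEL1 and -0.27 to 0.03 for BRIP1, those of 6 h responses from -0.04 to 0.12 for BLM and -0.21 to 0.09 for BRIP1, and the difference between pairs for RTEL1 from -0.13 to 0.30.

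Replicate numbers did not pair the samples (median correlation of same-numbered deviations -0.00889 in the A pair and 0.00653 in the B pair). With the replicate block, 0 members were called higher between 6 and 2 h in PEO1 BRCA+, and the calls for DHX9 in the A pair and WRN between 6 and 2 h in PEO1 BRCA+ were lost, while BLM at 2 h in PEO4 passed. With the longest transcript as length, mean levels in untreated PEO1 BRCA+ were 252 TPM for DDX5, 185 for DHX9, 56.1 for DDX11, 34.0 for DHX36, 24.3 for RTEL1, 22.8 for ATRX, 16.2 for WRN, 15.7 for PIF1, 12.9 for BLM and 6.20 for BRIP1, which moved WRN below RTEL1 and ATRX.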
